A study of Mus musculus with 16 samples.

Results

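The expression of 10 genes of glutathione metabolism and oxidant defence (Gclc, Gclm, Gpx3, Gsta4, Mgst1, Sod1, Sod2, Cat, Nqo1 and Hmox1) was followed across mouse midbrain dopaminergic neurons made from stem cells and taken from embryos. The 10 genes were chosen by symbol from 19938 measured genes, and each was read from its probe set with the highest mean over all 16 arrays. Each has 1 probe set with a single gene symbol. Gsta4 was included because it had been seen to be high in iPSC-derived cells, so its difference from primary neurons is described without a test, and the list as a whole was drawn up with earlier results of these data known.

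Levels are deposited log2 values from Affymetrix gene arrays after RMA, a method that corrects background, equalizes the distributions of the arrays and summarizes probes. All cells had the genotype Pitx3GFP/+, in which green fluorescent protein marks cells that use the Pitx3 locus, on a mixed C57BL/6 x 129/Ola background, and per the design text GFP-positive cells were sorted. In 2 groups of 5 biological replicates, the cells were the product of induced pluripotent stem cells (iPSCs) differentiated either with recombinant human WNT1 and DKK3 (treated) or without them (control). Primary neurons were sorted from the ventral midbrain of E13.5 or E14.5 embryos, with 3 technical replicate arrays per stage, so each stage is 1 sample. The sources used here do not give the number of iPSC lines, separate cultures or embryos. The p-values therefore speak only of the spread among these samples, which may be partly technical. In contrasts with primary neurons, that spread comes mostly from the iPSC-derived arrays, since the 2 different stages are the only primary samples.

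Glutathione, a tripeptide made by glutamate-cysteine ligase and glutathione synthetase, reduces peroxides through glutathione peroxidases and is coupled to lipid aldehydes and other electrophiles by glutathione S-transferases. Superoxide dismutases turn superoxide into hydrogen peroxide, which catalase and peroxiredoxins remove. Many of these genes are targets of Nrf2, the transcription factor encoded by Nfe2l2, which Keap1 holds in check until oxidants or electrophiles release it. Dopaminergic neurons of the midbrain face oxidants from dopamine oxidation, and loss of glutathione in the substantia nigra is a known feature of Parkinson's disease.

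All groups are labelled as midbrain dopaminergic neurons, but marker expression differed between them. All 10 markers of midbrain dopaminergic neurons and all 10 pan-neuronal markers were lower in control iPSC-derived cells than in primary neurons. By contrast, 10 of 10 fibroblast and stromal markers and 8 of 10 astrocyte and radial glia markers were higher (limma, adjusted p under 0.05 over all genes). Of the other glial markers, Slc1a2 was lower by -1.40 (limma adjusted p = 4.7e-04) and Fabp7 did not pass. Over all genes, 19.3% were higher and 22.5% lower. The mean log2 level over the dopaminergic list was 9.61 to 10.04 on the primary arrays and 5.74 to 6.05 on iPSC-derived arrays 1 to 4, but 7.83 and 7.50 on treated and control array 5. Arrays numbered 5 therefore stand apart, and results are also given without them. Levels in a sorted population cannot tell fewer cells of a type from less RNA per cell.

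**Figure D1:**
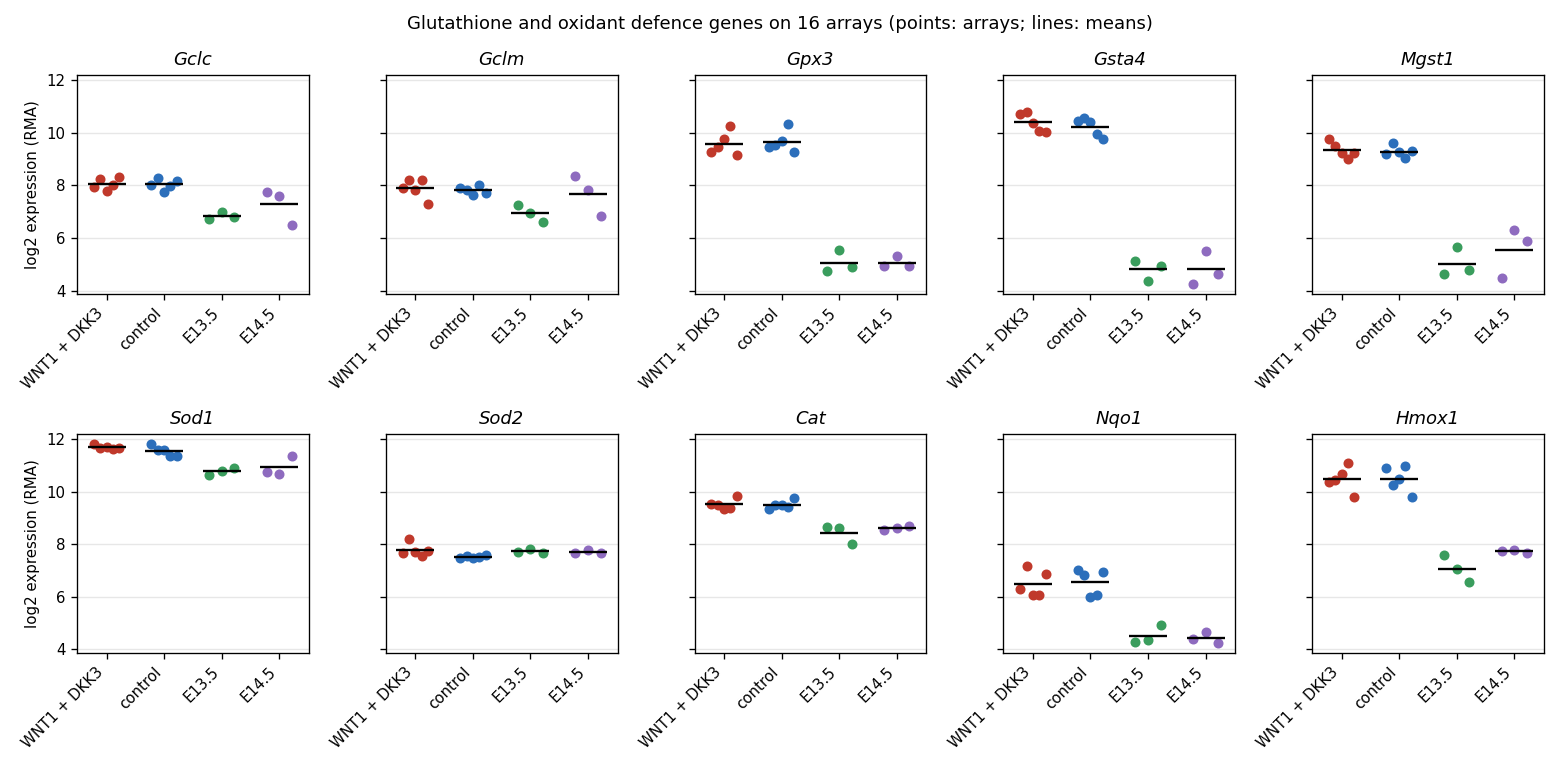
Log2 expression of the 10 genes (y axis) on each array, by group (x axis): treated with WNT1 and DKK3, control, E13.5 and E14.5. Points are arrays in the order of their replicate numbers and lines are group means; Gsta4, Gpx3, Mgst1 and Hmox1 lie far above the primary arrays on all 10 iPSC-derived arrays, and Sod2 lies at a like level in all groups.

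Set against primary neurons, iPSC-derived cells had higher levels of most of these genes, by very unequal amounts. In control cells, 7 of the 9 tested members were higher, 0 lower and 2 did not pass, where 19.3% of all genes were called higher and 22.5% lower, 41.9% in all. In treated cells the counts were also 7, 0 and 2, beside 19.9% and 21.3%, 41.1% in all. Both comparisons share the primary samples. Since the list was proposed from this contrast, the counts describe its members. On 7 of the 10 genes every iPSC-derived array lay above every primary array, which held for 14.1% of all genes. The 7 include Gsta4, which was listed for its high level in iPSC-derived cells. They also include Sod1, with a gap of only 0.001 in control cells. The median difference over the 9 tested members was 0.98 in control and 1.00 in treated cells, beside -0.11 and -0.09 over all genes. Without the arrays numbered 5, Gclm also passed in both comparisons.

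Gsta4 had the widest gap of the 10 genes, followed by Gpx3 and Mgst1. Gsta4 encodes an alpha-class transferase that conjugates 4-hydroxynonenal, an aldehyde from lipid peroxidation. Its log2 level was 10.69, 10.79, 10.35, 10.07 and 10.04 on treated arrays 1 to 5 and 10.44, 10.56, 10.40, 9.97 and 9.78 on control arrays 1 to 5. The primary arrays were at 5.12, 4.36 and 4.94 at E13.5 and at 4.27, 5.53 and 4.65 at E14.5. The lowest iPSC-derived array thus lay 4.25 above the highest primary array. The means of 10.23 ± 0.34 (SD, n = 5) in control cells and 4.81 in primary neurons differ by 5.42, about 42.8-fold, and treated cells, at 10.39 ± 0.35, lay 5.58 above primary neurons. These are the values that brought the gene onto the list.

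Mgst1 encodes a microsomal transferase that also reduces lipid hydroperoxides. It stood at 9.76, 9.51, 9.22, 8.996 and 9.23 on the treated arrays and at 9.19, 9.62, 9.27, 9.02 and 9.31 on the control arrays. The E13.5 arrays gave 4.62, 5.67 and 4.79, and the E14.5 arrays 4.47, 6.29 and 5.90. The groups did not overlap, and the primary arrays were spread more widely than the iPSC-derived ones. Control cells were higher by 3.99 (SE 0.21, limma adjusted p = 5.3e-08), about 15.9-fold, and treated cells by 4.05 (adjusted p = 4.7e-08).

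Gpx3 encodes the secreted, selenium-containing glutathione peroxidase of plasma. Its level was 9.28, 9.46, 9.75, 10.27 and 9.16 on the treated and 9.46, 9.54, 9.68, 10.32 and 9.25 on the control arrays, against 4.74, 5.53 and 4.88 at E13.5 and 4.93, 5.31 and 4.92 at E14.5. No iPSC-derived array came within 3.63 of a primary array. The difference was 4.60 in control cells (SE 0.30, limma adjusted p = 2.4e-07), about 24.3-fold, and 4.53 in treated cells (adjusted p = 2.7e-07).

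The inducible Nrf2 targets Hmox1 and Nqo1 followed. Hmox1 encodes heme oxygenase 1, which breaks down heme. It was at 10.36, 10.43, 10.66, 11.08 and 9.81 on the treated arrays, at 10.89, 10.26, 10.46, 10.95 and 9.80 on the control arrays, at 7.59, 7.05 and 6.58 at E13.5 and at 7.74, 7.78 and 7.67 at E14.5. It was higher by 3.07 in control cells (SE 0.35, limma adjusted p = 2.0e-05), about 8.42-fold, and by 3.07 in treated cells. Nqo1 encodes a quinone reductase that spares the cell from semiquinones, including those formed from dopamine. Its level was 6.29, 7.16, 6.05, 6.09 and 6.88 on the treated and 7.03, 6.82, 6.00, 6.08 and 6.96 on the control arrays, against 4.29, 4.36 and 4.93 at E13.5 and 4.40, 4.66 and 4.25 at E14.5. The iPSC-derived arrays fell into a higher and a lower set for this gene, and both lay above the primary arrays. The difference was 2.09 in control cells (SE 0.35, limma adjusted p = 4.3e-04), about 4.27-fold, and 2.01 in treated cells.

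No detection call was given for these arrays, so low values cannot be told from background. On the 6 primary arrays, Gsta4, Gpx3 and Nqo1 lay below the median of all probe sets on all 6 and Mgst1 on 5. Nqo1 lay below the lower quartile (4.57 to 4.70) on 4, Gsta4 on 2 and Mgst1 on 1. Where the primary value is background, the true fold may be larger than the one measured.

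The dismutase genes Sod1 and Sod2 and the catalase gene Cat differed less. Sod1, the cytosolic copper and zinc superoxide dismutase, was at 11.81, 11.64, 11.68, 11.62 and 11.64 on the treated and at 11.82, 11.57, 11.58, 11.35 and 11.34 on the control arrays. It was at 10.64, 10.78 and 10.90 at E13.5 and at 10.75, 10.66 and 11.34 at E14.5, so that E14.5 array 3, at 11.336, lay just below the lowest control array at 11.337. Control cells were higher by 0.69 (SE 0.13, limma adjusted p = 0.00115) and treated cells by 0.83 (adjusted p = 2.8e-04). Catalase, encoded by Cat, was at 9.54, 9.50, 9.34, 9.37 and 9.82 on the treated arrays, at 9.32, 9.47, 9.48, 9.42 and 9.74 on the control arrays, at 8.64, 8.61 and 7.996 at E13.5 and at 8.54, 8.61 and 8.68 at E14.5. Its groups did not overlap, and it was higher by 0.97 in control cells (SE 0.15, limma adjusted p = 1.9e-04) and by 1.00 in treated cells. These changes are about 2-fold or less, against the 15.9-fold of Mgst1.

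Sod2, the manganese superoxide dismutase of mitochondria, did not pass. It was at 7.68, 8.18, 7.71, 7.56 and 7.74 on the treated and at 7.46, 7.56, 7.48, 7.50 and 7.57 on the control arrays, and the primary arrays lay between 7.67 and 7.82. Control cells differed from primary neurons by -0.21 (95% interval -0.51 to 0.10, limma adjusted p = 0.249) and treated cells by 0.05 (-0.25 to 0.36, adjusted p = 0.779). All 5 control arrays lay below all 6 primary arrays, by a gap of 0.10. With each array centred on its median, control cells were lower by -0.39 (limma adjusted p = 0.0309), while the treated difference turned to -0.15 and did not pass. Centring moves all genes by -0.19 in control and by -0.21 in treated cells against primary neurons. It calls 44.3% and 44.1% of all genes lower, in place of 22.5% and 21.3%.

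The subunits of glutamate-cysteine ligase, the first and rate-limiting enzyme of glutathione synthesis, also differed by about 2-fold or less. Gclc, the catalytic subunit, was at 7.95, 8.25, 7.80, 7.998 and 8.30 on the treated and at 8.02, 8.29, 7.76, 7.96 and 8.18 on the control arrays. The E13.5 arrays gave 6.72, 7.004 and 6.79, and the E14.5 arrays 7.76, 7.61 and 6.48, with the highest at the level of the lowest control array. Gclc was higher by 0.98 in control cells (SE 0.18, limma adjusted p = 8.3e-04) and by 1.00 in treated cells. Gclm, the modifier subunit, was at 7.91, 8.19, 7.84, 8.21 and 7.29 on the treated and at 7.91, 7.81, 7.64, 8.01 and 7.69 on the control arrays, with 7.26, 6.97 and 6.60 at E13.5 and 8.37, 7.81 and 6.83 at E14.5. Its groups overlapped, and its differences of 0.51 (SE 0.24, limma adjusted p = 0.108) and 0.58 (adjusted p = 0.0714) did not pass. Single arrays decided this call: Gclm passed in control cells at 0.51 without treated array 5 (adjusted p = 0.0465), at 0.68 without E14.5 array 1 (0.0243) and at 0.54 without both arrays numbered 5 (0.0445). In treated cells it passed at 0.73 (0.0102), 0.76 (0.0146) and 0.73 (0.011) under the same omissions. Without E14.5 array 3 the control difference was 0.30. With 1 stage as the only primary sample, taken to vary like the iPSC-derived groups, Gclm differed in control cells by 0.87 against E13.5 (adjusted p = 0.0421) and by 0.14 against E14.5 (0.743). In treated cells it differed by 0.95 (0.0299) and 0.22 (0.608).

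**Figure D2:**
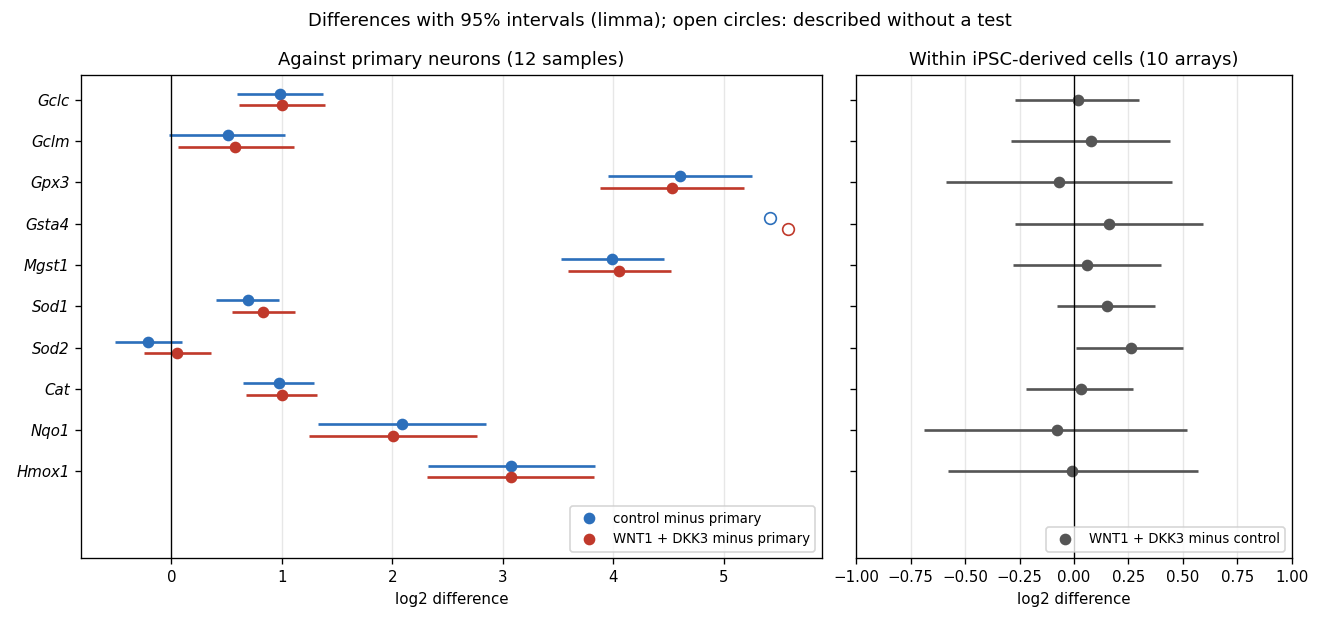
Log2 differences (x axis) of the 10 genes (y axis), with 95% intervals from limma as bars. The left panel shows control and treated cells minus primary neurons, with Gsta4 as open circles without an interval at 5.42 and 5.58; the right panel shows treated minus control, where all differences lie between -0.08 and 0.26.

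Marker genes of other cells differed in the same contrast. The mean level over the 10 fibroblast and stromal markers was 8.75 to 9.68 on treated, 8.998 to 9.81 on control, 5.68 to 5.88 on E13.5 and 5.81 to 6.05 on E14.5 arrays. Over the 10 astrocyte and radial glia markers it was 9.17 to 9.85, 8.98 to 9.71, 6.57 to 6.91 and 6.92 to 7.32. Among these glial markers 8 were higher, 1 was lower and 1 did not pass. Over the 12 endoderm, liver and choroid plexus markers, of which 5 were higher, 1 lower and 6 did not pass, it was 7.09 to 7.78, 7.05 to 7.77, 5.63 to 5.92 and 5.64 to 5.80. Within this list Ttr, which encodes transthyretin and marks choroid plexus and liver, was higher by 6.67 in control cells and the epithelial keratin genes Krt18 by 5.68 and Krt8 by 3.92, while Afp, a marker of visceral endoderm and fetal liver, was at 4.69 in control and 4.49 in primary cells and did not pass. For microglia and macrophages, 2 of 10 markers were higher and 5 lower, with ranges of 5.45 to 5.92, 5.49 to 5.90, 5.27 to 5.69 and 5.65 to 5.92 that overlapped between iPSC-derived and primary arrays. Of 5 measured markers of the red blood cell lineage 0 were higher and 2 lower, and of 8 endothelial markers 2 were higher and 1 lower. Of 9 measured pluripotency markers 0 were higher and 1 lower, with 7 higher without the arrays numbered 5. Over all genes, 19.3% were higher and 22.5% lower in the same contrast. The mean over the pluripotency list was 7.32 to 8.70 on iPSC-derived arrays 1 to 4, 5.54 and 5.62 on treated and control array 5 and 5.65 to 6.07 on the primary arrays. The part of these cell types in the levels of the 10 genes was not tested.

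**Figure D3:**
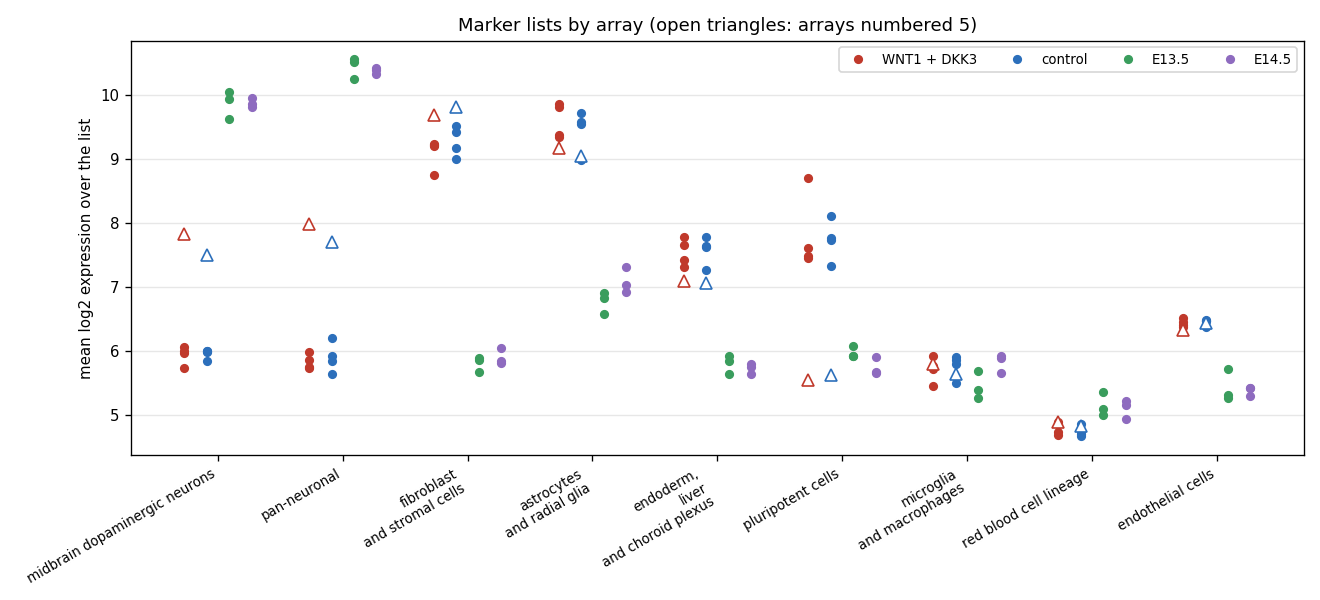
Mean log2 expression over each marker list (y axis) on each array, by list (x axis) and group (colours), with open triangles for treated and control array 5. Neuronal lists are highest on primary arrays, stromal and glial lists on iPSC-derived arrays, and the arrays numbered 5 lie between for the neuronal lists, at 7.98 and 7.70 over the pan-neuronal genes.

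On the arrays numbered 5, both the dopaminergic and the stromal marker lists were at their highest among the iPSC-derived arrays of their group. The stromal mean was 9.68 and 9.81 there, against 8.75 to 9.23 on treated and 8.998 to 9.51 on control arrays 1 to 4, and the pluripotency mean was the lowest of each group. Th, which encodes tyrosine hydroxylase, was at 9.22 and 8.52 there and at most at 6.17 on the other iPSC-derived arrays. Gsta4, Gpx3 and Hmox1 had their lowest value of the group on array 5 in both treated and control cells, and Cat its highest. Against the mean of the other arrays of its group, treated and control array 5 differed by -0.82 and -0.84 for Hmox1, by -0.53 and -0.50 for Gpx3 and by -0.44 and -0.57 for Gsta4. Even so, Gsta4 at 10.04 and 9.78, Gpx3 at 9.16 and 9.25 and Hmox1 at 9.81 and 9.80 remained well above all primary arrays, and without both arrays the control differences were 5.53, 4.70 and 3.24. The arrays were picked out by their values, so no test was made.

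The treated cells were then compared with the control cells, the study's question being what WNT1 and DKK3 do to the differentiating neurons. No member passed after adjustment over all genes: with limma, 0 of 10 genes were called and 1 had an unadjusted p under 0.05, beside 0% called and 300 such genes among all 19938. Gsta4 differed by 0.16 (95% interval -0.27 to 0.59), Mgst1 by 0.06 (-0.28 to 0.40) and Gpx3 by -0.07 (-0.59 to 0.45). Hmox1 differed by -0.01 (-0.58 to 0.57) and Nqo1 by -0.08 (-0.69 to 0.52). For all 10 genes the intervals lay within -0.69 and 0.59. The gene with an unadjusted p under 0.05 was Sod2, with a difference of 0.26 (0.01 to 0.50, limma adjusted p = 1), higher in treated cells at all 5 replicate numbers, and treated array 2 at 8.18 stood above the rest.

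For 2 of the 10 members, the replicate numbers had the same order of levels in treated and control arrays. Gsta4 had the order 2, 1, 3, 4, 5 from highest to lowest in both treated and control arrays, and Gpx3 the order 4, 3, 2, 1, 5 in both. The treated minus control difference at equal number was 0.25, 0.23, -0.05, 0.11 and 0.26 for Gsta4 and -0.18, -0.08, 0.07, -0.05 and -0.09 for Gpx3, while each gene ranged over 1.01 and 1.16 on the 10 arrays. Nqo1 was low on arrays 3 and 4 of both groups (6.00 to 6.09) and high on arrays 2 and 5 (6.82 to 7.16), but differed by -0.74 at number 1. Hmox1 differed by -0.53 there. Nothing in the labels ties arrays of the same number together.

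**Figure D4:**
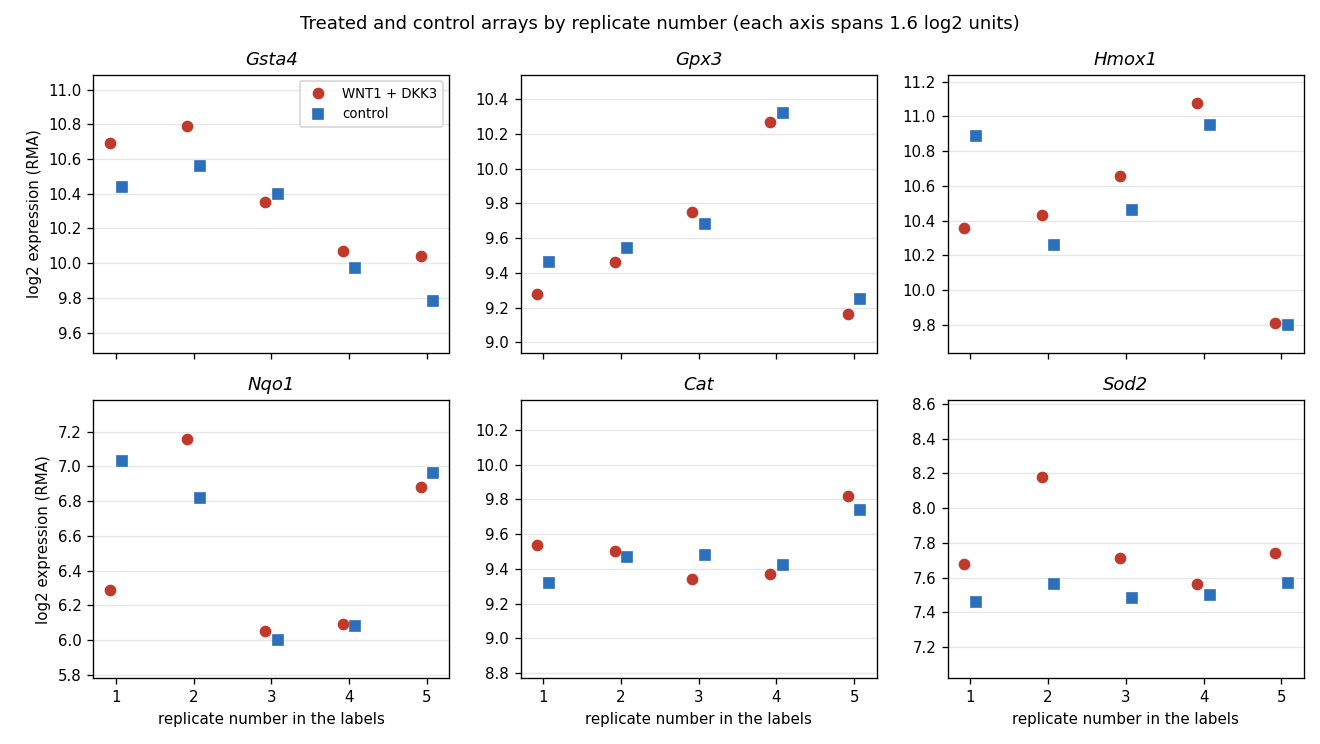
Log2 expression (y axis) of 6 genes on treated (circles) and control (squares) arrays by the replicate number of the labels (x axis). Gsta4 and Gpx3 keep the order of the numbers in both groups, Hmox1 is lowest and Cat highest on the arrays numbered 5, and Sod2 at 8.18 on treated array 2 lies above the others.

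Between the primary stages, 0 of the 10 genes differed by 1 or more on the log2 scale, which 0.336% of all genes did, and no test is possible with 1 sample per stage. Hmox1 was the only member whose technical arrays did not overlap (9.68% of all genes, 4.75% with E14.5 the higher), with 7.07 ± 0.51 (SD, n = 3 technical arrays) at E13.5 and 7.73 ± 0.05 at E14.5. Gclm was at 6.94 ± 0.33 and 7.67 ± 0.78, Mgst1 at 5.02 ± 0.56 and 5.55 ± 0.96 and Gclc at 6.84 ± 0.15 and 7.28 ± 0.70. The E14.5 arrays disagreed for these 3 genes far beyond the median technical SD of 0.21 over all genes: array 3 was the lowest for Gclc and Gclm and array 1 the lowest for Mgst1. Without E14.5 array 3 the Gclm difference was 1.15 in place of 0.73, and without E14.5 array 1 the Mgst1 difference was 1.07 in place of 0.53. The means of Gsta4, at 4.81 in both stages, Gpx3, at 5.05 in both, Sod2, at 7.73 and 7.71, and Nqo1, at 4.53 and 4.44, differed by at most 0.09. The Gsta4 arrays also disagreed, with technical SDs of 0.40 at E13.5 and 0.64 at E14.5. With 1 array left out, its stage difference ranged from -0.35 to 0.28.

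Nearby promoter sequence was examined because most members were higher together. A window of 250 bases before an annotated RefSeq start (build GRCm38.p6) was at hand for 7 of the 10 genes, with 2 starts for Mgst1, and none was at hand for Gsta4, Gclc and Hmox1. The core of the antioxidant response element, the site Nrf2 binds with small Maf proteins, was searched as TGACNNNGC on both strands. It matched in 3 of the 8 windows, those of Sod1, Gclm and the first start of Mgst1 but not its second, and 10.2% of all 32851 such windows hold a match. Windows of Mgst1 and Sod1 are shown with the match in capitals, and those of Gpx3 and Nqo1, also higher in iPSC-derived cells, without one. All are written 5′ to 3′ on the strand of the gene, which is the plus strand except for Nqo1.
Mgst1, chr6:138140277-138140526: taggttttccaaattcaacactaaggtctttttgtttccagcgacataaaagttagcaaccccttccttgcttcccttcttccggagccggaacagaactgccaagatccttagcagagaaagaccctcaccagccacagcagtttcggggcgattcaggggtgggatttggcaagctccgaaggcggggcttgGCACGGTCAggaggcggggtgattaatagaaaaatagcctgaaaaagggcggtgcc
Sod1, chr16:90220512-90220761: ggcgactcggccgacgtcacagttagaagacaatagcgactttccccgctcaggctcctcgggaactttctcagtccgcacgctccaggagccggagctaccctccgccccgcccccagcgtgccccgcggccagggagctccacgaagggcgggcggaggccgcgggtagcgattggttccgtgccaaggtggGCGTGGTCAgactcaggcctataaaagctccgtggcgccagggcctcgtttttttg
Gpx3, chr11:54902604-54902853: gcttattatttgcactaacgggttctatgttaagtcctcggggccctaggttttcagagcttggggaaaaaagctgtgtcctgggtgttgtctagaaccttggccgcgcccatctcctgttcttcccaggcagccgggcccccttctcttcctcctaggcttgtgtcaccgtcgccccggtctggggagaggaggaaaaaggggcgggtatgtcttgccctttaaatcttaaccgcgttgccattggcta
Nqo1, chr8:107403206-107403455: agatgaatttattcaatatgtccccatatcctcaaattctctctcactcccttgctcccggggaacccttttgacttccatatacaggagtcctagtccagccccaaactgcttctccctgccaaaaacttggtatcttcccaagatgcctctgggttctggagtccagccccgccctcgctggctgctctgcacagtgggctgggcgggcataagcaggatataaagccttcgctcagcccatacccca
In Mgst1 and in Sod1 the match lies on the minus strand at -56 to -48 from the start. Those 2 starts are the starts of the annotated genes. The Gclm start used here, chr3:122245557, lies inside the annotated gene, which begins at 122245487. From it the Gclm match lies on the minus strand at -134 to -126, within this stretch of the plus strand at chr3:122245413-122245441.
Gclm: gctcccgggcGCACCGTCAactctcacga
Of the genes with a match, Mgst1 was higher by 3.99 and Sod1 by 0.69, and Gclm did not pass. Of those without one in these windows, Gpx3 was higher by 4.60, Nqo1 by 2.09 and Cat by 0.97, and Sod2 did not pass. A match describes letters and not a bound site, and elements farther away were not searched.

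Other genes of the pathway were counted from lists drawn up with earlier results of these data known. Of 103 measured genes outside the 10 members, 0 passed between treated and control cells. Against primary neurons, 47 were higher and 13 lower in control cells and 49 and 11 in treated cells, with medians of 0.51 and 0.56. Without the arrays numbered 5 the control counts were 52 and 13. Centring each array on its median moves all genes by -0.19 in control against primary and turns the calls over all genes from 19.3% higher and 22.5% lower to 15.3% and 44.3%. The pathway counts were then 44 and 20. With quantile normalization of the deposited values they were 47 and 13, beside 19.1% of all genes higher and 18.7% lower.

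Among regulators of Nrf2, 3 of 12 were higher, 2 lower and 7 did not pass in control cells, with a median of 0.08. These counts are near the shares over all genes (19.3% higher, 22.5% lower). Nfe2l2, the gene of Nrf2 itself, was at 10.50 ± 0.09 (SD, n = 5) in control and 10.50 ± 0.03 in treated cells, against 5.80 at E13.5 and 6.60 at E14.5. It was thus higher by 4.30 (SE 0.16, limma adjusted p = 3.9e-09), about 19.6-fold. Sqstm1, whose product p62 binds Keap1, was higher by 1.69 and Nfe2l1, a related factor, by 1.49. Keap1 at 0.19 (adjusted p = 0.188) and the small Maf gene Mafg at 0.26 (0.0627) did not pass. Bach1, a repressor of Hmox1, was at -0.21 in treated cells (limma adjusted p = 0.174), which did not pass. In control cells Bach2 was lower by -1.19 and Bach1 by -0.33 (adjusted p = 0.0376). Under 6 of 26 alternatives Bach1 no longer passed (range of adjusted p 0.00296 to 0.312), among them the omission of control array 2 (0.0673), control array 5 (0.064) and E14.5 array 3 (0.273).

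In glutathione synthesis, cystine import and turnover, 7 of 15 other genes were higher, 2 lower and 6 did not pass in control cells. Over all genes, 19.3% were higher and 22.5% lower. Higher were Slc7a11, the cystine and glutamate exchanger, by 2.10 and its partner Slc3a2 by 1.42, Gss, glutathione synthetase, by 0.95, and the peptidases Anpep by 2.89 and Lap3 by 1.99. Lower were Slc1a1, the neuronal transporter that brings in cysteine and glutamate, by -1.57 and Ggt7 by -1.67. So the cystine exchanger and the neuronal cysteine transporter differed in opposite directions. In the list of glutathione reduction and NADPH supply, 3 of 9 were higher and 2 lower, and the share lower is near that of all genes. Me1, malic enzyme, was higher by 1.41, Gsr, glutathione reductase, by 0.67 and Pgd by 0.50. Idh1, the cytosolic isocitrate dehydrogenase, was lower by -2.20 and Pgls by -0.61. With a single stage as the primary sample, Gsr and Pgd (E14.5 alone) and Pgls (E13.5 alone) did not pass.

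Among the peroxidases, 4 of 7 other genes were higher and 0 lower, where 19.3% of all genes were higher and 22.5% lower. Gpx8, an enzyme of the endoplasmic reticulum, was higher by 3.74 (SE 0.28, limma adjusted p = 8.0e-07), Gpx1 by 1.28, Gpx7 by 1.16 and Gpx4, which reduces lipid hydroperoxides, by 1.13. Gpx2, Gpx5 and Gpx6 did not pass. Of 19 other glutathione S-transferase genes 10 were higher, 3 lower and 6 did not pass, beside the same shares of all genes. The mu-class gene Gstm1 was higher by 3.00 and Gstm2 by 2.95, while Gstm7 was lower by -3.20 (SE 0.20, limma adjusted p = 1.7e-07), Mgst3 by -1.34 and Gstm5 by -0.86. Members of the mu class thus differed in both directions. The related sequences of this family may share probes, so values of single Gstm genes are less certain, and Gstm5 did not pass against either stage alone. Gsta3, of the same class as Gsta4, was higher by 0.77 in control cells (limma adjusted p = 0.0406). In treated cells Gsta3 was at 0.64 (adjusted p = 0.0823) and did not pass. Probe sets shared by several Gsta genes were left out.

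Both other genes of the dismutase list were higher, Sod3, the extracellular superoxide dismutase, by 1.69 and Ccs, the copper chaperone of Sod1, by 1.45. Of 18 peroxiredoxin, thioredoxin and glutaredoxin genes, 10 were higher, 2 lower and 6 did not pass, beside 19.3% higher and 22.5% lower of all genes. Txnip, an inhibitor of thioredoxin that responds to glucose, was at 11.40 ± 0.16 (SD, n = 5) in control and 5.93 in primary cells and was higher by 5.46 (SE 0.13, limma adjusted p = 1.2e-10). Sesn2 was higher by 2.23, Prdx4 of the endoplasmic reticulum by 2.11 and Srxn1, sulfiredoxin, by 1.85. Prdx2, a peroxiredoxin abundant in neurons, was lower by -0.68, and Txnrd2, the mitochondrial thioredoxin reductase, by -0.68, which did not pass against E13.5 alone.

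Of 9 other genes of quinone, heme and iron handling 5 were higher and 1 lower, beside 19.3% higher and 22.5% lower of all genes. Ephx1, microsomal epoxide hydrolase, was higher by 4.20 (SE 0.23, limma adjusted p = 5.9e-08), Slc40a1, the iron exporter ferroportin, by 1.92 and Fth1, the ferritin heavy chain, by 1.07. Hmox2, the constitutive heme oxygenase, at -0.11 and Ftl1 at 0.14 did not pass, and Cbr1, a carbonyl reductase, was lower by -1.29. Of 12 genes of oxidant sources 3 were higher and 1 lower, with a median of 0.01, and the share higher is near the 19.3% of all genes. The higher ones were Cyba, a subunit of NADPH oxidases, at 2.25 and the monoamine oxidase genes Maoa at 1.21 and Maob at 0.95. Cybb, the phagocyte oxidase subunit, was at -0.28 in treated cells (limma adjusted p = 0.144), which did not pass. In control cells Cybb was lower by -0.44 (adjusted p = 0.0331). Under 8 of 25 alternatives Cybb no longer passed (range 0.00298 to 0.253), among them the omission of control array 2 (0.0509), 3 (0.0512), 4 (0.0535) or 5 (0.0516) and of E13.5 array 1 (0.0538).

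**Figure D5:**
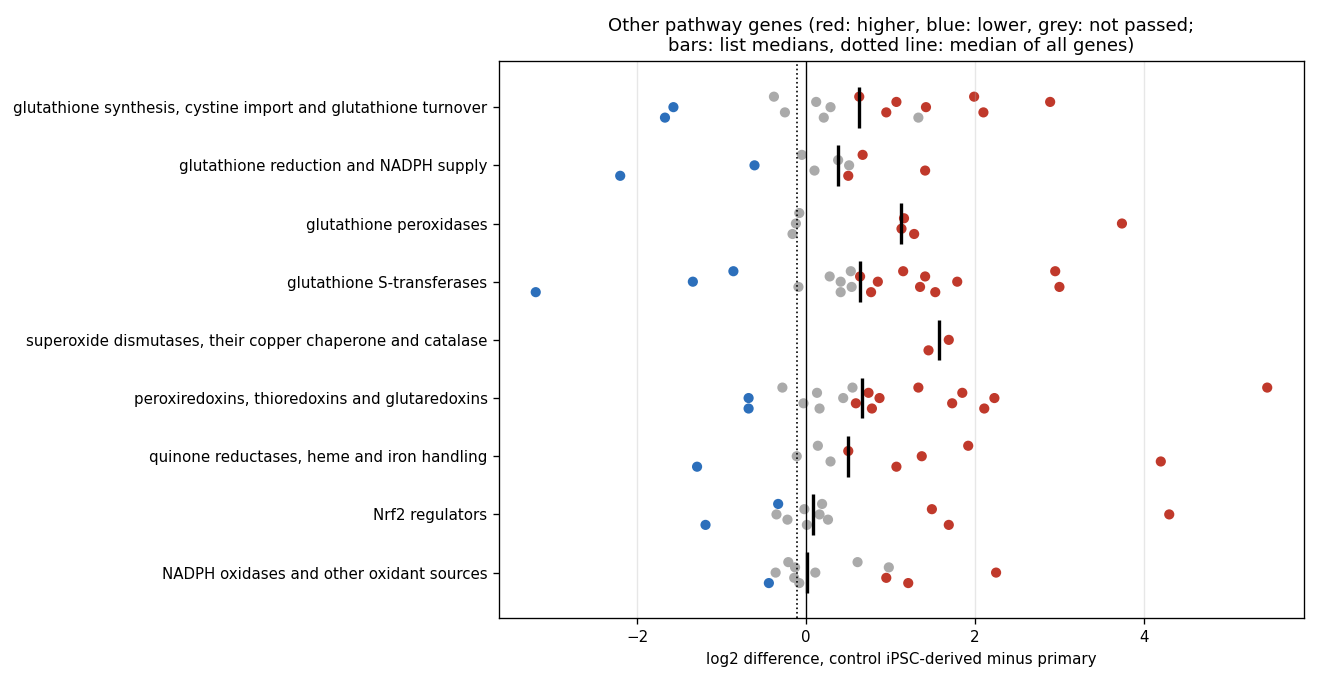
Log2 difference between control iPSC-derived cells and primary neurons (x axis) for the 103 pathway genes outside the 10 members, by list (y axis); red points passed as higher, blue as lower, grey did not pass, bars are list medians and the dotted line the median of all genes at -0.11. Genes that passed as lower appear in 7 of the 9 lists, all but the peroxidase and dismutase lists, and Txnip at 5.46 and Nfe2l2 at 4.30 lie farthest to the right.

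The genes with patterns most like that of Gsta4 were named by Pearson correlation among 9710 genes. These had a mean above the median of all genes, and predicted genes and Riken names were left out. Over the 10 iPSC-derived arrays the most alike were Pdpr (r = 0.972), Rpl8 (0.948), H2az2 (0.946), Snhg5 (0.940) and Mdk (0.937). Not all shared its gap to primary neurons. Control and primary means were 9.77 and 9.76 for H2az2, 9.22 and 9.83 for Snhg5, 6.82 and 6.12 for Pdpr and 11.47 and 10.97 for Rpl8. Over the 12 samples the most alike were Mdk and Hadh (0.997 each), Mt2 (0.997), Ecrg4 (0.995) and Anxa6 (0.995). There the gap between iPSC-derived and primary samples sets the values. Mdk, the gene of the growth factor midkine, stood in both sets, at 10.62 to 11.10 on iPSC-derived and 7.23 to 7.93 on primary arrays. The points share the amplification and labelling method, and the correlations are descriptions.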

How the data were processed

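RNA was measured on 16 Affymetrix gene arrays. The authors deposited log2 values of 35556 probe sets. Per the submitters' processing notes, RMA and Affymetrix Expression Console 1.2 were used; the sources used here do not name the build or say whether all arrays were normalized together. RNA was amplified before labelling, per the labels' protocols (Ovation PicoSL WTA System V2), which can add spread between arrays. Quantile-normalized levels are relative, and values from 2.423 to 14.167 carry no detection call.

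The platform's probe table gave 21789 probe sets 1 symbol, updated through Entrez IDs with a RefSeq table for 21698. The 1621 with several symbols and 12146 not listed were left out. The brightest probe set per gene gave 19938 genes. No filter was applied. All 10 members also pass a filter on the dimmest 25% by the mean over all 16 arrays. High iPSC-derived values raise this mean, so passing says nothing of detection in primary neurons.

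limma 3.58.1 in R 4.3.3 was run on all genes, two-sided, with Benjamini-Hochberg adjustment at 0.05, after a test on simulated data. Treated against control used 10 arrays. Contrasts with primary neurons used 12 samples in 3 groups, the technical arrays of each stage averaged. All 3 groups shared an estimate of spread, set mostly by the iPSC-derived arrays. The intervals are 95% intervals. Members and lists were chosen with earlier results of these data known. Genes named from a list are the 3 at most that passed in each direction with the greatest difference in control against primary. Slc3a2, Gss, Keap1, Mafg, Gpx2, Gpx4, Gpx5, Gpx6, Gpx7, Gstm2, Gsta3, Srxn1, Slc40a1, Fth1, Hmox2, Ftl1 and the marker genes Th, Slc1a2, Fabp7, Ttr, Krt18, Krt8 and Afp were added after their values were seen. Genes of the pathway lists without a probe set of a single symbol, among them Ggt1, G6pdx, Gsta1, Gsta2, Gstp2, Prdx5 and Prdx6, were not analysed here. Alternatives changed the arrays, scaling, prior, filter, probe set rule, block and primary stage.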

Additional observations from a re-analysis of the deposited data

Results flagged for a closer look

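In treated cells, Sod2 on array 2 was at 8.18, far from the other 4 arrays, which lay between 7.56 and 7.74. The gap to the nearest array was 0.712 of the range of the group. This was 1 flag in 20 groups tested (10 genes in treated and control arrays), and chance flags about 1 in 20 groups. Without this array, the treated minus control difference of Sod2 was 0.16 in place of 0.26.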

How the results depend on the processing

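Over 26 alternatives each, 7 or 8 of the 9 tested members were called in control and treated cells against primary neurons. Treated against control kept 0 over 17. The eighth call was Gclm as higher or, in control cells with arrays centred, Sod2 as lower. With 1 array left out, 7619 to 8788 of all 19938 genes were called in control and 7390 to 8745 in treated cells. With arrays centred, 15.3% of all genes were higher and 44.3% lower in control cells. Gclc, Gpx3, Mgst1, Sod1, Cat, Nqo1 and Hmox1 passed as higher under all 26. The difference of Gsta4 lay between 5.23 and 5.60 in control and 5.37 and 5.76 in treated cells. Small differences changed sign. Treated against control, with 1 array left out at a time, ranged from -0.06 to 0.08 for Gclc, from -0.0045 to 0.22 for Gclm, from -0.24 to 0.10 for Gpx3, from -0.04 to 0.15 for Mgst1, from -0.05 to 0.09 for Cat, from -0.25 to 0.03 for Nqo1 and from -0.17 to 0.16 for Hmox1. Gclc was at -0.0025 with arrays centred and at -0.01 without both arrays numbered 5. Sod2, treated against primary, ranged from -0.05 to 0.10 with 1 array left out, was at -0.15 with arrays centred and at -0.01 with quantile normalization. In E14.5 against E13.5, 0 to 1 members reached a difference of 1 when single technical arrays were left out, an alternative chosen after seeing the data. The causes were not tested. With either stage as the only primary sample, 5527 and 5374 genes in all were called in control cells in place of 8346 and 5417 and 5315 in treated cells in place of 8201, from 1 primary sample.

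The replicate number as a block gave 0 calls among the members in treated against control and 1 among all genes, with 0.16 (SE 0.08) for Gsta4 and 0.26 (SE 0.10) for Sod2, both with a limma adjusted p of 0.999. Deviations of equally numbered treated and control arrays correlated across genes at 0.045 for number 1 and at 0.435 to 0.798 for numbers 2 to 5. Not every array correlated best with its own number, so the numbers are not taken as pairs. With the block the SE of each member was smaller, at 0.08 in place of 0.24 for Gpx3. The treated minus control intervals without it may thus be too wide if equal numbers share spread. As a random block, the number gave 7 calls in each contrast with primary neurons. No detection call was at hand, so low primary levels limit the folds.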
